A study of Mus musculus with 4 samples.

Results

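The genes that cut and protect extracellular matrix were described in fibroblasts of a mouse melanoma model. They were chosen by symbol as the matrix metalloproteinases (*Mmp*), the tissue inhibitors of metalloproteinases (*Timp1* to *Timp4*) and the ADAMTS proteases (*Adamts*), which gave 23 *Mmp*, 4 *Timp* and 19 *Adamts* genes, 46 of the 33696 genes listed in the files. Their levels were read in kept fibroblasts, which were cells with 500 to 6000 genes, at most 10% mitochondrial UMIs, no *Ptprc* or *Pax3* UMI and at least 3 UMIs of *Col1a1*, *Col1a2* and *Col3a1* together. Of 24489 cell barcodes, 21098 were kept fibroblasts.

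The cells came from B16-F1-OVA tumors, a melanoma line that expresses ovalbumin, grown for 14 days after 400000 cells were injected intraperitoneally. The hosts were Cxcl13-cre-tdTomato X R26R-eGFPflox mice with the host strain labelled C57Bl/6, and their ages are not given. In these mice the *Cxcl13* promoter drives tdTomato and cre, so tdTomato marks cells that express the promoter and eGFP marks cells in which cre has acted. All 4 groups carried the same alleles and had the same tumor, day and digestion with collagenase II and collagenase-dispase. CD45neg CD31neg podoplanin-high cells were sorted by reporter into tdTomato-neg eGFP-neg (double-negative), tdTomato+ eGFP-neg, tdTomato+ eGFP+ and tdTomato-neg eGFP+ cells, and each population was 1 library of 3′ single-cell RNA sequencing. Values for the 4 libraries are given in this order throughout. The number of mice behind a library is not given in the sources used here, and the mice were of both sexes.

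MMPs are zinc-dependent proteases that are made as inactive precursors and cut collagens, proteoglycans and other matrix proteins. TIMPs bind the active site of MMPs, and TIMP3, which is held in the matrix, also blocks several ADAMTS proteases. ADAMTS proteases are secreted relatives that cut proteoglycans such as versican and aggrecan or trim the ends of procollagens. Fibroblasts are a known source of these families in tumors.

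The libraries held 90259852, 52046896, 10071954 and 63310850 UMIs and gave 9866, 4634, 853 and 5745 kept fibroblasts, with medians of 5776, 9118, 8732 and 8397 UMIs per cell. All 7 fibroblast markers were detected in the kept fibroblasts of every library. Among the other cells, 432 were melanoma-like (*Pax3* and at least 10 UMIs of 6 further melanocyte genes) and 328 immune-like (*Ptprc* and at least 5 UMIs of 7 further leukocyte genes). Some cells of those kinds stayed inside the collagen gate, since 137 kept fibroblasts had at least 10 melanoma-marker UMIs and 163 at least 5 immune-marker UMIs. Pairs of libraries shared 2 to 21 barcodes, 57 in all. With 1 library per population, libraries were compared without a test, and counting intervals cover counting error only.

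Levels are UMIs of a gene per 1000000 UMIs (CPM), summed over cells. A UMI counts the 3′ end of 1 transcript, so levels of different genes were compared without dividing by length. The members took 0.752% of all fibroblast UMIs, and most of that was inhibitor. The 4 *Timp* genes held 82.1% of the members' UMIs and *Timp1* alone 64.4%, against 10.3% for the *Adamts* genes and 7.59% for the *Mmp* genes. Of the 46 members, 19 reached 20 CPM in the fibroblasts of a library, in a fibroblast cluster or in pooled melanoma-like or immune-like cells, and are described by name. The other 27 stayed at or below 12.4 CPM over all kept fibroblasts, and 8 of them had under 10 UMIs, among which *Mmp7* and *Mmp20* had none in 21098 cells, which allows up to 0.0161 CPM.

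The 300 bases around the transcription start (250 before and 50 after) were in the RefSeq table of build GRCm38.p6 for 32 members. Windows are shown for the pair of inhibitors with opposite patterns (*Timp1*, *Timp3*) and for a pair of proteases of the same gene cluster on chromosome 9 (*Mmp3*, *Mmp13*). In kept fibroblasts *Mmp3* was at 68.5 CPM and *Mmp13* at 0.737 CPM. Capitals mark the AP-1 motif (TGACTCA, both strands), the TATA box (TATAAA, strand of the gene only) and the core of the hypoxia response element (ACGTG, both strands, which also lies inside the E-box CACGTG).
Timp1 at chrX:20869916-20870215, plus strand: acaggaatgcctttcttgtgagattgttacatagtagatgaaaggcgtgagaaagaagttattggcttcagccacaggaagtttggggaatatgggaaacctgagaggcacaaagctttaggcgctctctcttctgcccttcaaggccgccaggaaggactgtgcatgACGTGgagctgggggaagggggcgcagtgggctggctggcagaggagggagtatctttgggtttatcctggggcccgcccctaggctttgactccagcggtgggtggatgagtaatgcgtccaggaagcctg
Timp3 at chr10:86300162-86300461, plus strand: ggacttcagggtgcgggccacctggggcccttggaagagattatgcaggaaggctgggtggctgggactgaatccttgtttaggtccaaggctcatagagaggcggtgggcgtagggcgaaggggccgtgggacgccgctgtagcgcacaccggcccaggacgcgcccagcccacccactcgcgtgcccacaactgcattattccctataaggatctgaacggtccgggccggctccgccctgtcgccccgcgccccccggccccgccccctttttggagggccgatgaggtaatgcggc
Mmp3 at chr9:7445572-7445871, plus strand: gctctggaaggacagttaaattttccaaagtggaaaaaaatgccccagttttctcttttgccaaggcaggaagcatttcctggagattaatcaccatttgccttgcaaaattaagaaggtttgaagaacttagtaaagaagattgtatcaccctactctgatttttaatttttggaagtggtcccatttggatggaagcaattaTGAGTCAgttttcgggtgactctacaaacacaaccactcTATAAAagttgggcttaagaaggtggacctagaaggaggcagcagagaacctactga
Mmp13 at chr9:7272264-7272563, plus strand: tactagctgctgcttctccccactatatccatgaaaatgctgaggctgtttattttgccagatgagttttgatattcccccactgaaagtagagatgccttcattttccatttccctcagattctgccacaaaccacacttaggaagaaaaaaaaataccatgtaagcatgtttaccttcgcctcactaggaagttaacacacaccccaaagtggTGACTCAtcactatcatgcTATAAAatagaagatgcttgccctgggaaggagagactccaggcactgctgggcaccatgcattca

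The AP-1 motif stood in 7 of the 32 members, *Mmp1a*, *Mmp1b*, *Mmp3*, *Mmp7*, *Mmp10*, *Mmp12* and *Mmp13*, and in 5.95% of all 27018 genes of the table. All 7 lie on chromosome 9, where 10 members were found within 420 kilobases (chr9:7272264-7692390), and all 7 also held a TATA box. The TATA box was found in 10 of the 32 members and in 9.77% of all genes. In *Mmp3* the AP-1 motif began at base -46 from the start and in *Mmp13* at base -35. The hypoxia motif stood in 8 members, *Timp1* and *Mmp14* among them, and in 21.8% of all genes, and the *Timp3* window held none of the 3. A link between these motifs and the level of a gene was not tested. Of the 7 genes with the AP-1 motif, *Mmp3* was at 68.5 CPM in kept fibroblasts and the next was *Mmp10* at 1.42 CPM. *Mmp27*, whose window on chromosome 9 held no AP-1 motif or TATA box, was at 3.73 CPM.

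*Timp1*, a secreted inhibitor of many MMPs, was the most abundant member in every library. It stood at 4980, 5417, 6871 and 3884 CPM in kept fibroblasts, highest in tdTomato+ eGFP+ and lowest in tdTomato-neg eGFP+ cells. *Timp2*, which also takes part in the activation of MMP2 by MMP14, was nearly level over the libraries at 706, 746, 816 and 750 CPM. *Timp3* was at 509, 464, 552 and 816 CPM, so tdTomato-neg eGFP+ cells had both the lowest *Timp1* and the highest *Timp3*. *Timp4* had 6 UMIs in all kept fibroblasts. *Timp1* had a UMI in 90.9% of kept fibroblasts, *Timp2* in 91.4% and *Timp3* in 62.1%. After each cell was thinned to 1000 UMIs, which left out 415 cells, the shares were 73.6%, 50.4% and 30.9%, and in melanoma-like cells thinned alike they were 18.3%, 20.4% and 3.24%. Unthinned, 74.8%, 87.7% and 27.3% of melanoma-like cells had a UMI, at a median of 20895 UMIs per cell against 7478 in kept fibroblasts.

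The *Mmp* genes summed to 566, 688, 627 and 472 CPM, and no single gene dominated them. The most abundant was *Mmp23*, an unusual membrane-anchored member that lacks the common hinge and hemopexin domains, with 190, 173, 190 and 165 CPM. *Mmp14*, the membrane-type collagenase that activates MMP2, was at 140, 163, 138 and 134 CPM. *Mmp19*, a secreted MMP of broad expression, was at 73.5, 158, 141 and 98.4 CPM, lowest in double-negative cells. *Mmp3* (stromelysin 1), which cuts proteoglycans and activates other MMPs, was at 49.4, 131, 106 and 36.9 CPM, higher in both tdTomato+ libraries than in both tdTomato-neg libraries. *Mmp2* (gelatinase A) was at 97.1, 45.5, 34.3 and 22.5 CPM, highest in double-negative cells. The secreted collagenases *Mmp1a*, *Mmp1b*, *Mmp8* and *Mmp13* summed to only 0.952 to 2.50 CPM, and *Mmp9*, the other gelatinase, stayed between 0.635 and 1.20 CPM.

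For each MMP UMI there were 11.0, 9.64, 13.1 and 11.5 TIMP UMIs. This ratio of transcripts says nothing of the amount of active enzyme.

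Among the *Adamts* genes, the proteoglycanases (*Adamts1*, *Adamts4*, *Adamts5*, *Adamts8*, *Adamts9*, *Adamts15*, *Adamts20*) summed to 513, 658, 533 and 523 CPM. *Adamts9*, which cuts versican and aggrecan, was at 127, 296, 227 and 235 CPM, lowest in double-negative cells. *Adamts5*, the main aggrecanase of mouse cartilage, showed the opposite order at the double-negative end, with 161, 87.6, 67.1 and 88.2 CPM. *Adamts1*, a versican-cutting protease, differed little at 157, 205, 187 and 161 CPM. *Adamts4* was at 42.0, 39.9, 34.99 and 23.4 CPM and *Adamts15* at 22.5, 25.9, 13.3 and 10.6 CPM. The procollagen N-propeptidases, which remove the amino-terminal ends of fibrillar procollagens, were led by *Adamts2* at 113, 141, 126 and 94.2 CPM. *Adamts3* was at 22.5, 30.2, 28.4 and 29.1 CPM. Of the others, *Adamts6* was at 33.0, 25.3, 18.3 and 16.6 CPM and *Adamts12* at 27.1, 25.01, 24.2 and 11.1 CPM. *Adamts10* stayed between 6.46 and 8.58 CPM and *Adamts16* between 0.370 and 3.42 CPM.

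The next comparison asked whether these transcripts belonged to the fibroblasts or to the tumor cells and leukocytes sorted with them. UMIs were summed per library and cell class and tested with edgeR's quasi-likelihood test with the library as a block, with Benjamini-Hochberg adjustment over 10642 genes. Both contrasts used the same fibroblast sums, and the p-values measure how alike the 4 libraries were, which may come from the same tumors. Only 19 of the 46 members passed the filter on low counts, which a gene could pass by its fibroblast sums alone, so a gene high in fibroblasts was more likely to be tested.

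Against melanoma-like cells, all 19 tested members were higher in fibroblasts and none lower, where 40.7% of all tested genes were higher in fibroblasts and 27.1% lower. The median difference was 3.29 on the log2 scale over these members and 0.18 over all tested genes. The largest was *Timp1*. In melanoma-like cells it was at 581, 186, 125 and 387 CPM, and these groups did not overlap those of the fibroblasts, with a log2 difference of 4.31 (SE 0.41, adjusted p = 7.6e-07). *Adamts9* was at 9.86, 7.46, 17.4 and 14.6 CPM in melanoma-like cells, a log2 difference of 4.29 (SE 0.21, adjusted p = 3.94e-09), and *Timp3* at 45.6, 19.1, 6.96 and 57.4 CPM, a log2 difference of 4.26 (SE 0.27, adjusted p = 2.66e-08). The smallest differences were those of *Adamts12* at 1.33 (SE 0.25), *Adamts10* at 1.48 (SE 0.27) and *Mmp14* at 1.66 (SE 0.14). *Mmp14* was the highest *Mmp* gene of melanoma-like cells, at 45.1, 57.2, 38.3 and 65.6 CPM, and made up 51.6% of their *Mmp* UMIs. Melanoma-like cells also kept *Timp2*, at 219, 162, 205 and 196 CPM. Collagen (*Col1a1*, *Col1a2*, *Col3a1*) was at 884 to 1625 CPM in melanoma-like cells and at 16814 to 26094 CPM in fibroblasts, and the part of fibroblast RNA in the melanoma-like levels was not tested.

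Against immune-like cells the differences were smaller. Of the 19 members, 14 were higher in fibroblasts and none lower, where 12.2% of all genes were higher in fibroblasts and 12.1% lower. The 5 that did not pass were *Mmp3* (log2 -0.03, adjusted p = 0.972), *Timp3* (0.58, 0.0812), *Adamts14* (0.78, 0.0524), *Adamts6* (0.40, 0.308) and *Adamts10* (0.24, 0.596). *Mmp2* had the largest difference, 1.32 (SE 0.25, adjusted p = 0.00197), with 24.9, 20.9, 15.0 and 17.5 CPM in immune-like cells, so its tdTomato-neg eGFP+ fibroblasts at 22.5 CPM lay within the range of the immune-like cells. *Timp1* was at 2362, 3404, 2200 and 2080 CPM in immune-like cells, a log2 difference of 1.17 (SE 0.36, adjusted p = 0.0304). The count was unstable: it fell to 6 without the tdTomato-neg eGFP+ or the tdTomato+ eGFP+ library and to 8 without the double-negative library.

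Immune-like cells carried 7579 to 17578 CPM of collagen. They were also limited to the 182 cells with under 0.5% collagen UMIs. *Mmp3* was then 3.02 higher on the log2 scale in fibroblasts (SE 0.43, adjusted p = 9.98e-05) and *Timp1* 2.65 (SE 0.48, adjusted p = 0.000823). *Timp2* differed less, by 0.68 (SE 0.18, adjusted p = 0.0101), with 416, 368, 867 and 447 CPM left in these cells. The 867 CPM of the tdTomato+ eGFP+ library came from 11 cells.

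*Mmp12*, the macrophage metalloelastase, went the other way. It was at 16.2, 4.52, 11.2 and 18.9 CPM in immune-like cells and at 0.0897 to 0.196 CPM in fibroblasts, so the groups did not overlap. It did not pass the low-count filter of the main test. At its fibroblast level it could pass that filter only by its immune-like sums, so no p-value is given. Its log2 difference was -7.66 (SE 0.60) with the collagen limit and -6.44 (SE 0.57) without the filter. Its 38 UMIs in immune-like cells came from 13 of 328 cells (3.96%), and 14 of 21098 kept fibroblasts (0.0664%) had a UMI. *Mmp13* was at 20.0, 4.52, 0 and 4.05 CPM in immune-like cells and at 0.423 to 1.13 CPM in fibroblasts, which overlapped. Its log2 difference without the filter was -3.22 (SE 0.48), also given without a p-value. Both were named after their values were seen.

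**Figure D1:**
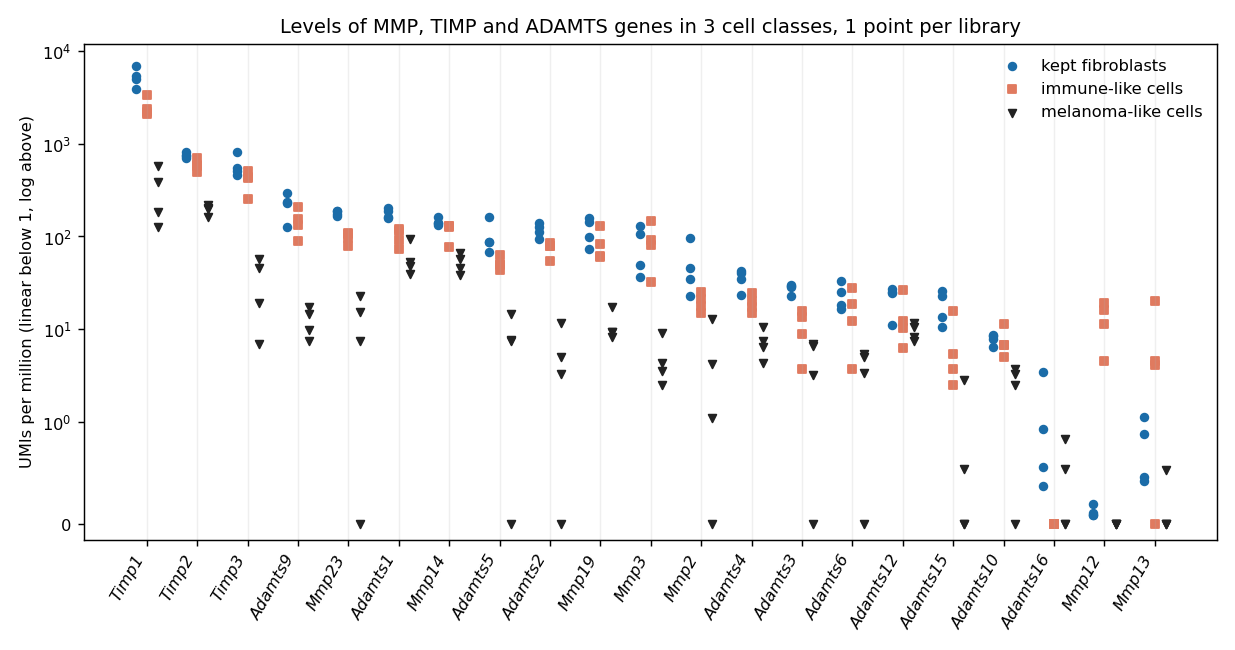
Level of each named member and of *Mmp12* and *Mmp13* in CPM (linear below 1 and logarithmic above) for kept fibroblasts, immune-like and melanoma-like cells, with 1 point per library. *Timp1* lies at 3884 to 6871 in fibroblasts and at 125 to 581 in melanoma-like cells, while *Mmp12* is highest in immune-like cells.

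Of the 34 partner genes listed for these proteases (activators, receptors, other inhibitors, ADAMTS-like proteins and substrates), 23 were tested. Against melanoma-like cells 20 were higher in fibroblasts, 2 lower (*Adam10* at -0.74 and *Bsg* at -0.86, the sheddase ADAM10 and the MMP-inducing surface protein basigin) and 1 did not pass. Of all tested genes, 40.7% were higher in fibroblasts and 27.1% lower. Against immune-like cells 10 were higher and 3 lower, namely *Plau* (urokinase, -1.26), *Furin* (a convertase that activates MMP14, -1.13) and *Adam17* (-0.95). There, 12.2% of all tested genes were higher in fibroblasts and 12.1% lower.

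The members also differed between clusters of the kept fibroblasts. Kept fibroblasts were clustered with the 46 members and the 34 partner genes held out. The 7 clusters were named by the marker list with the highest mean log2 ratio, a scoring chosen after the data were seen. They were 4675 matrix-like cells (led by *Mfap4*, *Ptx3* and *Aspn* among others), 1444 universal-like (*Inmt*, *Opcml*), 5537 mesothelial-like (*Krt18*, *Upk3b*, *Msln*), 4662 hypoxic-like (*Nos2*, *Ereg*, *Serpinb2*) and 4512 cycling-like (*Cenpf*, *Ccnb1*), with 140 cells of immune and 128 of melanoma markers. Clusters against each other are a description with no test. The list behind the hypoxic-like name mixed *Serpinb2* and *Ereg* with *Vegfa*, *Car9*, *Ndrg1* and *Slc2a1*, so the name does not stand for hypoxia alone. The names depend on the number of clusters. With 5 clusters asked for, 14719 of the 21098 cells formed 1 cluster that scored as mesothelial. All 10 mesothelial markers were above their level over all cells there, and the hypoxic and cycling names did not appear.

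The universal-like cells stood apart in other ways: 1360 of them came from the double-negative library, their median was 1982 UMIs, 98.6% of the cells that could be told by *Xist* or Y-linked UMIs had *Xist* only (53.6% in matrix-like), and the summed level of 8 stress genes was 7552 CPM against 4093 CPM. Sex marks and depth also differed among the other clusters. The share with *Xist* only was 26.7% in mesothelial-like, 76.2% in hypoxic-like and 49.1% in cycling-like cells. Their medians were 5371, 9132 and 10783 UMIs, against 7667 in matrix-like cells. The part of these in the differences between clusters was not tested. For universal-like over matrix-like cells, values among *Xist*-only cells and within libraries are given for *Timp1* and *Adamts5*.

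The inhibitors changed places between the clusters. *Timp1* was at 8078 CPM in matrix-like, 7148 in hypoxic-like, 2902 in cycling-like, 1792 in mesothelial-like and 355 in universal-like cells. *Timp3* was at 118 CPM in matrix-like against 676, 738, 843 and 473 CPM in the same order of the others. *Timp2* was at 524, 682, 721, 953 and 2037 CPM. *Timp1* therefore made up 92.6% of TIMP UMIs in matrix-like, 49.9% in mesothelial-like and 12.4% in universal-like cells, where *Timp2* led.

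The *Timp1* and *Timp3* differences were present in every library. In matrix-like cells *Timp1* was at 7941, 7692, 10597 and 8933 CPM and in mesothelial-like cells at 1959, 1585, 2138 and 1668 CPM, so the ranges did not overlap, and the log2 ratio ran from -2.42 to -2.02. *Timp3* was at 125, 87.9, 91.3 and 110 CPM in matrix-like and at 807, 654, 777 and 927 CPM in mesothelial-like cells, a log2 ratio of 2.69 to 3.09. Per cell, the median matrix-like cell had 61.6 *Timp1* UMIs per 10000 (10th to 90th percentile 9.82 to 168), and 24.1% of matrix-like cells had a *Timp3* UMI, against 78.0% of mesothelial-like cells. After thinning to 1000 UMIs, 6.56% of matrix-like and 45.1% of mesothelial-like cells had a *Timp3* UMI.

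**Figure D2:**
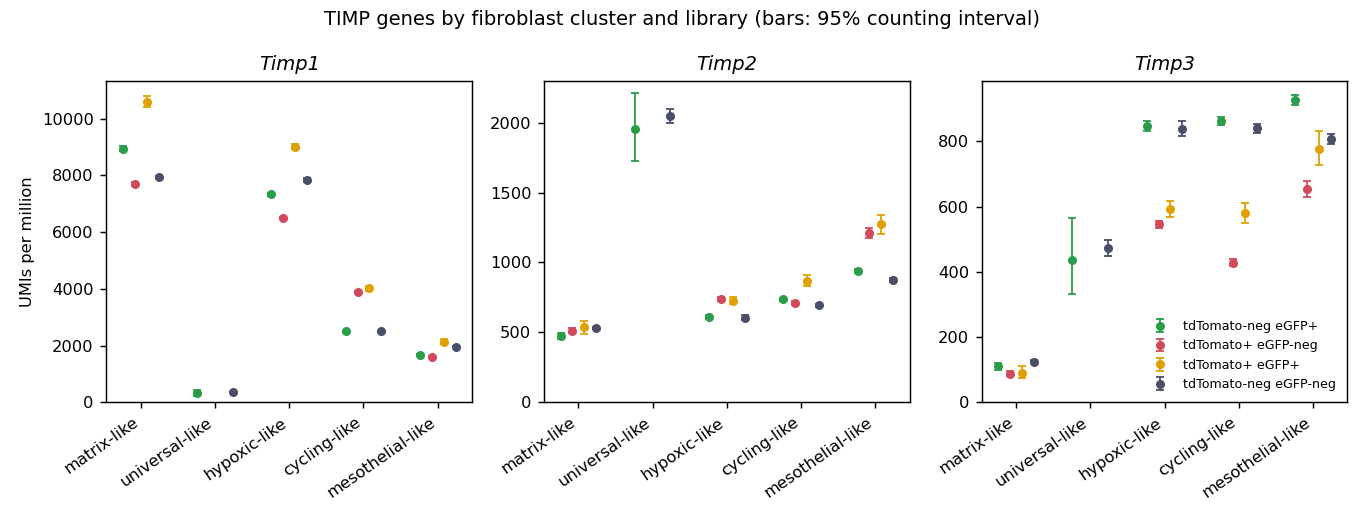
*Timp1*, *Timp2* and *Timp3* in CPM by cluster, with 1 point per library of at least 50 cells and 95% counting intervals. *Timp1* is highest in matrix-like and hypoxic-like cells, *Timp3* is lowest in matrix-like cells of all 4 libraries, and *Timp2* is near 2000 in universal-like cells.

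Of 23 members compared between mesothelial-like and matrix-like cells (at least 5 CPM in either), 3 were past 2-fold higher in mesothelial-like cells and 12 past 2-fold lower, where 9.17% of all 10408 genes were past it higher and 10.2% lower. The median log2 ratio was -1.03 over these members and 0.02 over all compared genes. The higher were *Timp3* (2.84), *Adamts20* (2.61, at 6.46 against 1.06 CPM) and *Adamts9* (1.13). The lower were led by *Mmp2* at 11.3 against 181 CPM (log2 ratios of -4.97 to -3.33 within libraries), and *Adamts12*, a protease linked to cartilage matrix turnover, at 4.02 against 53.4 CPM (-3.73). *Adamts4* was at 10.3 against 87.1 CPM (-3.08) and *Adamts6* at 8.38 against 63.7 CPM (-2.93). *Mmp3* (-2.45), *Timp1* (-2.17), *Adamts15* (-2.04), *Adamts2* (-1.60), *Mmp14* (-1.16) and *Adamts10* (-1.03) were also past the line, as were *Mmp11* and *Adamts19*. Of the named members past 2-fold, all had 1 direction in the 4 libraries, except *Adamts15*, whose ratio was 0.53 among the 160 mesothelial-like and 97 matrix-like cells of the tdTomato+ eGFP+ library. *Adamts9* turned to -0.42 and -0.57 when the clusters were built from 15 or 40 components, with 3310 and 239 mesothelial-like cells in place of 5537.

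*Adamts5* was within 2-fold over all cells (log2 -0.62) and was not alike in the libraries. It was at 182, 232, 42.3 and 89.3 CPM in matrix-like cells and at 107, 125, 130 and 117 CPM in mesothelial-like cells. The mesothelial-like level thus hardly varied, and the matrix-like level was lower in both eGFP+ libraries. *Timp2* was higher in mesothelial-like cells in all 4 libraries, by 0.71 to 1.25.

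**Figure D3:**
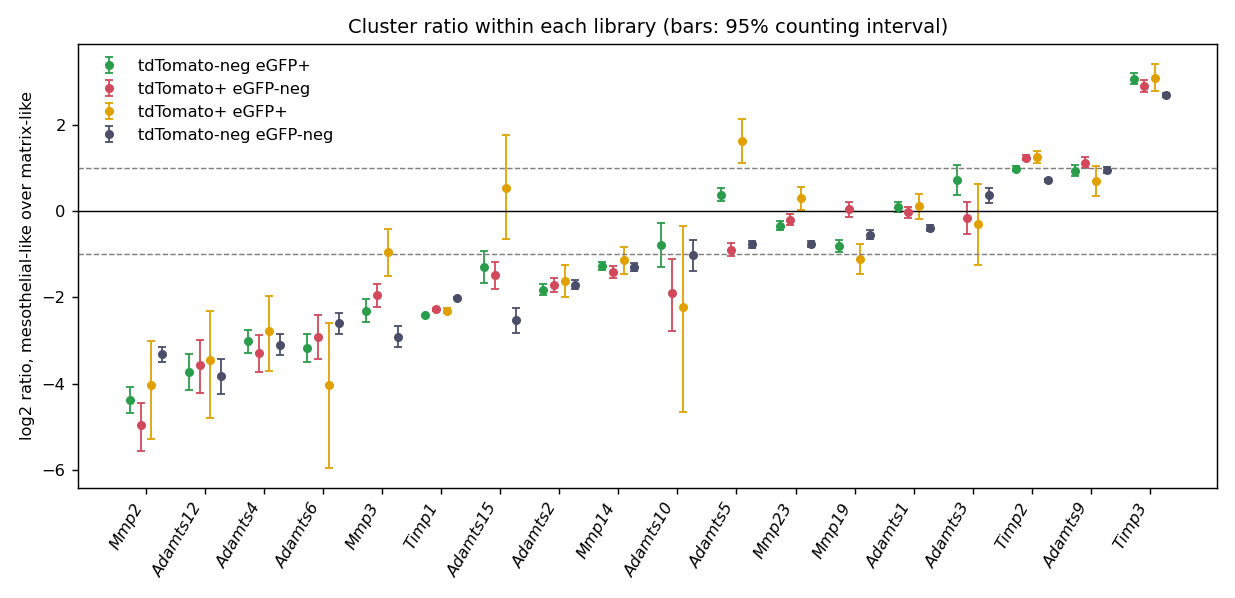
Log2 ratio of mesothelial-like over matrix-like cells within each library, with 95% counting intervals and dashed lines at 2-fold. *Mmp2* lies between -4.97 and -3.33 and *Adamts12* between -3.83 and -3.44, *Timp3* is highest in all 4 libraries, and *Adamts5* is above 0 in the 2 eGFP+ libraries and below 0 in the others.

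Of 25 members compared between universal-like and matrix-like cells, 8 were past 2-fold higher and 7 past 2-fold lower, where 12.9% of all 10669 genes were past it higher and 10.4% lower. The median log2 ratio was 0.42 over these members and 0.13 over all compared genes. *Adamts5* was the largest of the abundant, at 1029 against 175 CPM (log2 2.55), and had a UMI in 66.6% of universal-like and 42.8% of matrix-like cells although the former were shallower. It was 2.23 among *Xist*-only cells, and 2.49 and 3.63 within the double-negative and tdTomato-neg eGFP+ libraries, where at least 50 cells of both kinds were found. *Timp3* (2.01), *Timp2* (1.96), *Adamts12* (1.06) and *Adamts16* (2.27, at 21.9 against 4.52 CPM) were also higher, as were *Mmp11*, *Mmp16* and *Mmp27*, which stayed under 20 CPM. *Timp1* was lower by far the most, at 355 against 8078 CPM (log2 -4.51), at -4.51 among *Xist*-only cells and at -4.47 and -4.82 within the double-negative and tdTomato-neg eGFP+ libraries. The others past 2-fold lower were *Adamts9* (-2.30), *Adamts3* (-1.76), *Adamts14* (-1.67), *Adamts6* (-1.60), *Adamts4* (-1.37) and *Mmp19* (-1.11). *Mmp2*, at 315 against 181 CPM, was within 2-fold. With little *Timp1*, universal-like cells had 3.16 TIMP UMIs for each MMP UMI, against 10.05 in matrix-like, 13.6 in hypoxic-like, 10.6 in cycling-like and 9.07 in mesothelial-like cells.

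Hypoxic-like cells held the highest *Adamts9* (313 CPM) and *Adamts3* (34.9 CPM) of the 5 clusters, over all cells and, among clusters of at least 50 cells, in each of the 4 libraries. *Mmp19* was at 154 CPM there and at 105 CPM in matrix-like cells over all libraries, but at 97.6, 184, 154 and 130 against 93.0, 117, 193 and 150 CPM within them, so matrix-like cells were higher in both eGFP+ libraries. *Mmp3* was at 124 CPM there, between universal-like (139 CPM) and matrix-like cells (83.3 CPM), while *Mmp2* was at 27.0 CPM. Cycling-like cells were close to mesothelial-like cells for most members, for example *Mmp2* at 12.4 and 11.3 CPM and *Mmp14* at 107 CPM in both. Others differed: *Adamts5* was at 67.2 against 114 CPM, and *Timp1* was higher in cycling-like cells. *Mmp3* was at 11.8, 119, 79.1 and 20.1 CPM in cycling-like cells of the 4 libraries, against 10.2, 34.5, 41.2 and 13.3 CPM in mesothelial-like cells.

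**Figure D4:**
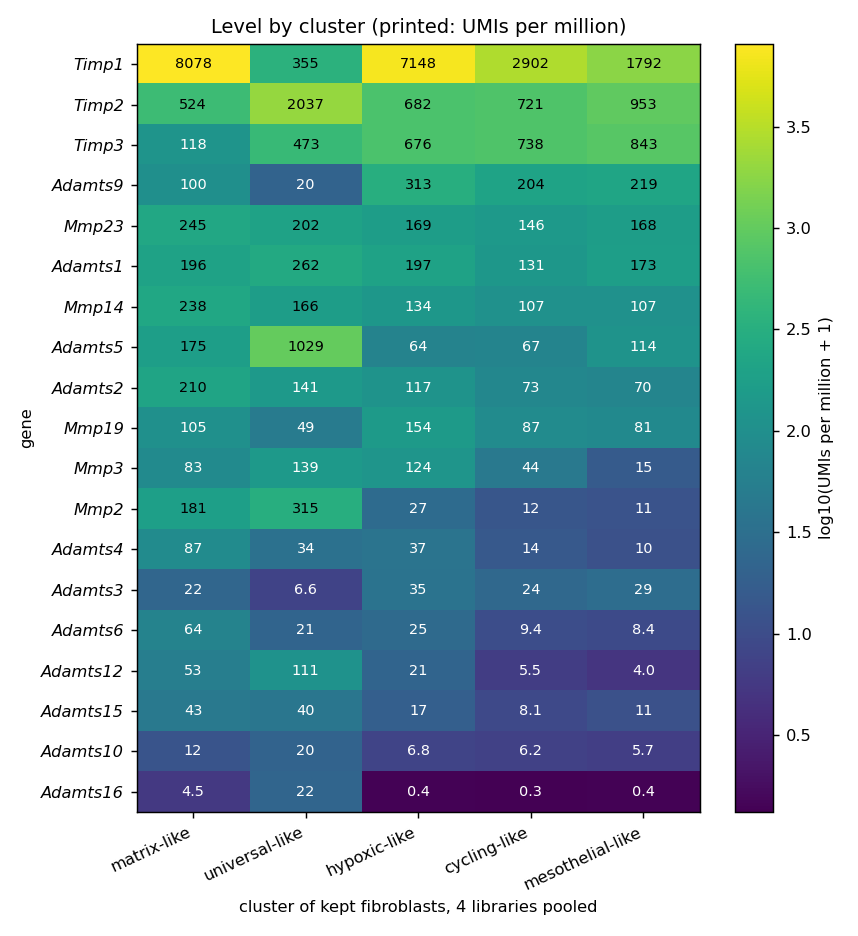
Levels of the 19 named members in 5 clusters of kept fibroblasts over all libraries, colored by log10 of CPM plus 1 and printed as CPM. *Timp1* runs from 355 in universal-like to 8078 in matrix-like cells and *Mmp2* from 11.3 in mesothelial-like to 315 in universal-like cells.

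Among the partner genes, of 25 compared between mesothelial-like and matrix-like cells, 1 was past 2-fold higher and 11 lower, where 9.17% of all genes were higher and 10.2% lower. Among the lower were *Serpine2* (protease nexin 1) at 2.58 against 99.2 CPM, *Pcolce2* (a procollagen proteinase enhancer) at 4.71 against 75.5 CPM, and *Vcan* (versican, a substrate of ADAMTS proteases) at 180 against 500.5 CPM. Of 27 compared between universal-like and matrix-like cells, 8 were higher and 7 lower, where 12.9% of all genes were higher and 10.4% lower. *Pcsk6* (a convertase) was at 250.2 against 8.06 CPM, *Pcolce2* at 669 against 75.5 CPM and *Reck* (a membrane-bound MMP inhibitor) at 52.8 against 8.54 CPM. *Pcsk6* is also among the genes that lead the universal-like cluster.

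The last comparison set each reporter-positive library beside the double-negative library, which all 3 ratios share. In tdTomato-neg eGFP+ fibroblasts, 0 of 21 members compared were past 2-fold higher and 4 past 2-fold lower, where 0.743% of 10100 genes were past it higher and 3.35% lower. The median log2 ratio was -0.26 over the members and 0.10 over all genes. In tdTomato+ eGFP-neg fibroblasts, 4 of 22 were higher and 1 lower, where 2.34% of 10166 genes were higher and 2.87% lower, with medians of 0.21 and 0.10. In tdTomato+ eGFP+ fibroblasts, 2 of 21 were higher and 2 lower, where 1.9% of 10054 genes were higher and 3.75% lower, with medians of 0.16 and -0.02.

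*Mmp2* was past 2-fold lower in all 3 libraries, with log2 ratios of -1.09 (95% interval -1.16 to -1.02) in tdTomato+ eGFP-neg, -1.50 (-1.67 to -1.33) in tdTomato+ eGFP+ and -2.11 (-2.20 to -2.02) in tdTomato-neg eGFP+ cells. The libraries also held unlike numbers of the cells in which it was high: 3603 of 9866 double-negative fibroblasts were matrix-like and 1360 universal-like, against 558 and 29 of 4634, 97 and 1 of 853, and 417 and 54 of 5745 in the others. Within matrix-like cells the ratios were 0.26, -0.63 and -0.47, and within mesothelial-like cells -1.38, -1.34 and -1.52. *Adamts5* was past 2-fold lower in tdTomato+ eGFP+ cells (-1.26), but its ratio was 0.28 within mesothelial-like and -2.10 within matrix-like cells. *Adamts12* (-1.28) and *Adamts15* (-1.08) were past 2-fold lower in tdTomato-neg eGFP+ cells. Within matrix-like cells they were at 0.03 and -0.83, and within mesothelial-like cells at 0.13 and 0.40. *Adamts19* (-1.14) was the fourth.

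*Mmp3* was past 2-fold higher in both tdTomato+ libraries, by 1.41 (1.35 to 1.47) without and 1.11 (1.00 to 1.21) with eGFP. In tdTomato+ eGFP-neg cells it was also higher by 1.10 among *Xist*-only and 1.66 among Y-only cells. Within the clusters compared it was higher by 0.80 in matrix-like, 0.93 in hypoxic-like, 1.75 in mesothelial-like and 3.33 in cycling-like cells. In tdTomato+ eGFP+ cells the same values were 0.06 (-0.28 to 0.37), 0.85, 2.01 and 2.75. The cycling-like cluster was named by cell-cycle genes, and may hold unlike kinds of fibroblasts in each library, which was not tested. In tdTomato-neg eGFP+ cells *Mmp3* was at -0.42. *Adamts14*, a procollagen N-propeptidase outside the named genes that is given because it was past the line, was higher by 1.30 and 1.24 in the tdTomato+ libraries and by 0.66 in tdTomato-neg eGFP+ cells. *Mmp19* (1.10) and *Adamts9* (1.22) were past 2-fold higher in tdTomato+ eGFP-neg cells, and within matrix-like cells they were 0.33 and 0.57 higher. In mesothelial-like, hypoxic-like and cycling-like cells *Mmp19* was at 120, 184 and 145 CPM there, against 63.5, 97.6 and 50.3 CPM in double-negative cells. *Adamts9* was at 292, 345 and 290 CPM, against 175, 228 and 143 CPM. *Timp1*, *Timp2* and *Timp3* stayed within 2-fold in all 3 comparisons. *Timp3* was 0.68 higher in tdTomato-neg eGFP+ cells, and -0.19 within matrix-like and 0.20 within mesothelial-like cells. *Timp1* was lowest in this library over all kept fibroblasts. In its matrix-like, mesothelial-like, hypoxic-like and cycling-like cells *Timp1* was at 8933, 1668, 7336 and 2500 CPM. Those of the double-negative library had 7941, 1959, 7834 and 2508 CPM.

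**Figure D5:**
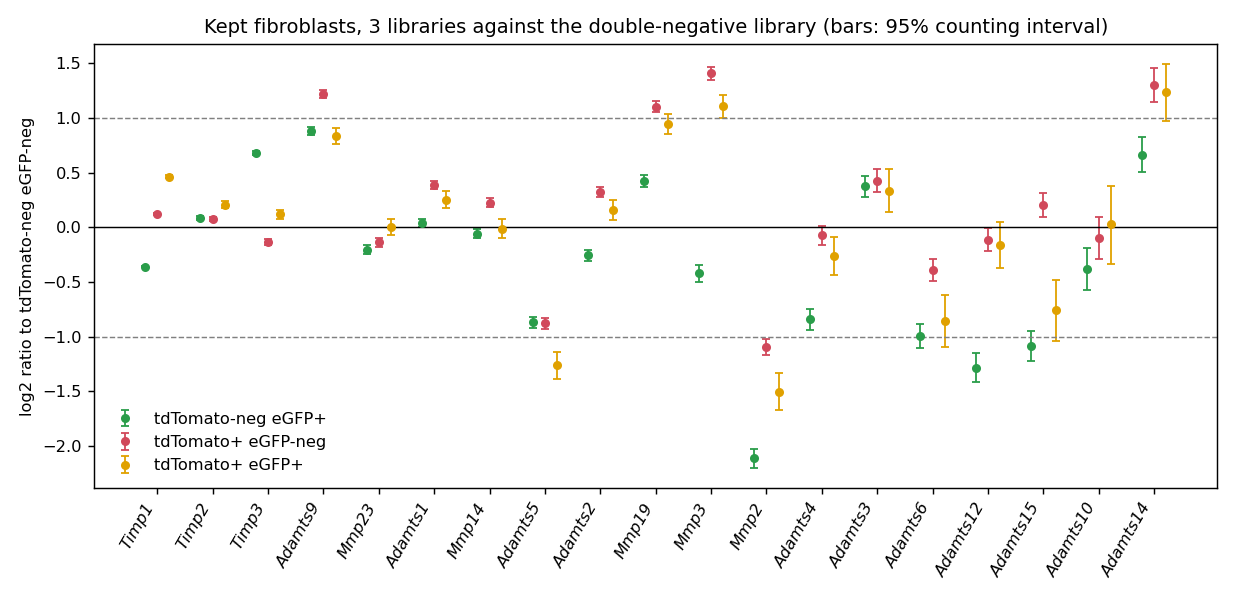
Log2 ratio of kept fibroblasts of each reporter-positive library to those of the double-negative library for 18 named members and *Adamts14*, with 95% counting intervals and dashed lines at 2-fold. *Mmp2* is below the lower line in all 3 libraries and *Mmp3* above the upper line in both tdTomato+ libraries.

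Of the 34 partner genes, 26 were compared in each of these 3 ratios and 5 were past 2-fold lower in each, *Pcsk5*, *Pcsk6*, *Serpine2*, *Adamtsl3* and *Pcolce2*, among which *Pcsk6*, *Adamtsl3* and *Pcolce2* were past 2-fold higher in universal-like cells. Over all compared genes, 2.87%, 3.75% and 3.35% were past 2-fold lower in tdTomato+ eGFP-neg, tdTomato+ eGFP+ and tdTomato-neg eGFP+ fibroblasts. *Thbs1* (thrombospondin 1) was past 2-fold higher in both tdTomato+ libraries, at 791 and 623 against 291 CPM, and *Fn1* (fibronectin) in tdTomato+ eGFP-neg cells, at 2989 against 1370 CPM. The stress genes were at 3944, 4275, 4127 and 3800 CPM in the kept fibroblasts of the 4 libraries, and the part of the digestion in any of these values was not tested.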

How the data were processed

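Cells of 4 sorted populations, 1 library each, were measured by 3′ single-cell RNA sequencing with UMIs. The authors deposited raw UMI counts per gene and cell. Per the labels these were made with Cell Ranger 10.0.0 on GRCm39, while the matrix header names Cell Ranger 8.0.0. No other normalization was applied before deposit.

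Filters and cell classes are those given with the results. UMI counts were summed per library and class and tested with edgeR 4.0.16 (quasi-likelihood, TMM, filterByExpr, library as a block). The cell classes lie within each library, which is what pairs them. Libraries and clusters were compared by the ratio of summed counts with exact conditional 95% intervals. Kept fibroblasts were clustered with Seurat 5.3.0 (2000 variable genes, 25 of 50 components, 7 clusters). Doublets were not removed in the main analysis, because the Scrublet threshold called 0, 0, 3 and 251 cells in the tdTomato-neg eGFP+, tdTomato+ eGFP-neg, tdTomato+ eGFP+ and double-negative libraries. Leaving out the 1543 barcodes with the highest scores was an alternative. Symbols listed more than once were 26 in number. The tests were checked on simulated counts.

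Genes of at least 20 CPM in a library's fibroblasts, a cluster or a pooled cell class were named. The genes and lists were chosen with earlier results of these data known. The values of 1 partner gene are not reported here.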

Additional observations from a re-analysis of the deposited data

Results flagged for a closer look

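The ratio of mesothelial-like to matrix-like cells went opposite ways in the libraries for *Adamts5*. On the log2 scale it was 0.39 within the tdTomato-neg eGFP+ library and 1.62 within the tdTomato+ eGFP+ library, against -0.77 in double-negative and -0.89 in tdTomato+ eGFP-neg cells. The tdTomato+ eGFP+ value rests on 97 matrix-like cells at 42.3 CPM. For *Mmp23* the ratio was 0.29 within the tdTomato+ eGFP+ library (95% interval 0.03 to 0.56), against -0.76, -0.34 and -0.20 in the double-negative, tdTomato-neg eGFP+ and tdTomato+ eGFP-neg libraries. With 1 library per population these differences were not tested.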

How the results depend on the processing

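Shares over all genes were counted for the main setting only, so the counts here stand beside the number of members tested or compared. Without the filter on low counts, 31 of 44 members tested in place of 19 of 19 were called against melanoma-like cells, 30 of them higher in fibroblasts. Leaving out 1 library gave 19 to 20 of 19 to 21 tested. Against immune-like cells the 14 calls became 8 of 19 with DESeq2's Wald test and 9 of 19 with a mitochondrial limit of 5%. When 1 library was left out they became 6 to 12 of 19 to 21. The 12, without the tdTomato+ eGFP-neg library, were 11 higher in fibroblasts and 1 lower (*Mmp12*). Without the replicate block (the library), 7 were called. *Mmp3* against immune-like cells turned from -0.03 to 3.02 with the collagen limit on those cells.

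For tdTomato-neg eGFP+ over double-negative fibroblasts, the 4 of 21 members past 2-fold became 7 of 29 with a minimum of 1 CPM and 2 of 20 within mesothelial-like cells. For tdTomato+ eGFP-neg, the 5 of 22 became 9 of 32 with a minimum of 1 CPM and 2 of 25 within matrix-like cells. For tdTomato+ eGFP+, the 4 of 21 became 9 of 30 with a minimum of 1 CPM and 7 of 22 within mesothelial-like cells. Within hypoxic-like and cycling-like cells, alternatives chosen after seeing the data, the counts were 0 and 1 of 20 for tdTomato-neg eGFP+ and 3 and 8 of 22 for tdTomato+ eGFP-neg cells.

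In the order matrix-like, mesothelial-like, hypoxic-like and cycling-like, *Adamts12* turned to 0.025, 0.13, 0.92 and 0.74 in tdTomato-neg eGFP+ cells. In the last 3 of these *Adamts15* turned to 0.40, 0.46 and 0.31. *Mmp2* turned to 0.26 in matrix-like and 0.19 in cycling-like tdTomato+ eGFP-neg cells and to 0.24 in hypoxic-like tdTomato+ eGFP+ cells, and *Adamts5* to 0.28 in mesothelial-like tdTomato+ eGFP+ cells. *Adamts9* in mesothelial-like over matrix-like cells turned to -0.42 with 15 and -0.57 with 40 components. The causes were not tested.

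Between mesothelial-like and matrix-like clusters 13 to 16 of 23 to 24 members were past 2-fold when 1 library was left out. Between universal-like and matrix-like clusters the count was 15 to 16 of 24 to 26. A level from the 14 melanoma-like or 21 immune-like cells (11 with the collagen limit) of the tdTomato+ eGFP+ library rests on few UMIs.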
